A study of Mus musculus with 12 samples.

Results

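This account follows 31 genes of cholesterol and fatty acid synthesis, among 29462 genes of the deposited table, in primary mouse aortic smooth muscle cells with and without cystathionine gamma-lyase. The members were taken by symbol from a set list that runs from the sterol sensing proteins through the enzymes that turn acetyl-CoA into cholesterol to the enzymes that make, desaturate and activate fatty acids. All 31 were found, each on 1 row. The list does not hold every enzyme of either pathway.

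The series holds 12 RNA libraries. Of these, 6 are of cells from C57BL/6J mice (WT1 to WT6) and 6 of cells from animals that lack cystathionine gamma-lyase in the whole body (CSE, encoded by Cth; KO1 to KO6). CSE makes cysteine and hydrogen sulfide. Cells of both genotypes were grown in medium with fetal bovine serum, which supplies lipids from outside the cell, and all received angiotensin II, a vasoconstrictor peptide, at 1 uM for 24 h. No cells without angiotensin II were analysed here, so the only comparison is KO against WT under this treatment. The labels give no age or sex of the mice and do not call the WT mice littermates. They also leave unsaid if libraries of 1 genotype are separate animals or cultures, so a p-value here reflects the scatter of these libraries alone, which may be technical. In bulk samples such as these, fewer cells of a type and less RNA per cell cannot be told apart.

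Mammalian cells make cholesterol from acetyl-CoA, first through mevalonate and isoprenoid units to squalene, then through a chain of sterol intermediates. The transcription factors SREBP-1 and SREBP-2, encoded by Srebf1 and Srebf2, sit in the endoplasmic reticulum membrane bound to the sterol sensor SCAP. When sterols are plentiful, INSIG proteins hold SCAP in place, and when sterols are scarce, SCAP carries SREBP to the Golgi, where proteases release the active factor. SREBP-2 is known mainly for the genes of cholesterol synthesis and SREBP-1 for those of fatty acid synthesis, and Insig1 is itself a target, so that transcript levels of these genes are often read as a record of SREBP activity. Protein processing and lipid levels were not measured in these libraries.

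Several facts about the libraries bear on what follows. KO5 and KO6 stood apart from KO1 to KO4. Across the genes tested, their correlation with those 4 was 0.947 to 0.96, whereas the lowest among KO1 to KO4 was 0.993 and the lowest among WT libraries 0.992. The proliferation gene Mki67 reached 31.46 FPKM in KO5 and 119.95 in KO6, beside 14.18 to 18 in the other KO libraries and 20.13 to 27.48 in WT. Results were therefore also computed without these 2 libraries. Cth itself was at most 0.08 FPKM in any WT library and at most 0.02 in KO, so it does not check the genotype labels. Of 8 contractile smooth muscle markers, Myh11, Cnn1, Des, Lmod1 and Myocd stayed below 1 FPKM in every library. The summed level of the 8, carried mainly by Acta2, was 123.86 to 152.43 FPKM in WT. It was 86.41 to 95.9 in KO1 to KO4, all below WT, and 155.01 and 168.56 in KO5 and KO6, both above it. Acta2 and Smtn did not pass with all libraries and were lower with KO1 to KO4 alone (adjusted p = 3.9e-06 and 1.5e-06, limma). Tagln was at 0.06 to 0.37 FPKM in WT and 0.27 to 1.32 in KO. Cnn1 and Lmod1 were higher in every KO library than in any WT library. The label of smooth muscle thus rests on few of its defining genes. Among 7 markers of adipocytes, cells with high lipid synthesis, Adipoq, Plin1, Cidec, Lep and Cfd stayed below 1 FPKM in all libraries, and the summed level was 3.16 to 4.71 in WT and 4.17 to 6.81 in KO. Fabp4, too low to be tested, went from 0.247 ± 0.0476 to 1.6 ± 0.423 FPKM with no overlap. Pparg did not pass with all libraries (adjusted p = 0.16, limma) and was higher by 0.22 with KO1 to KO4 alone (adjusted p = 0.015, limma). Some markers of other cell types moved with genotype, not always in 1 direction within a list. The 8 epithelial and mesothelial markers summed to 146.04 to 154.78 FPKM in WT and 44.55 to 67.87 in KO, with Epcam, Krt8 and Krt18 below 1 throughout. Cdh1 and Krt19 carried this sum and fell, Cdh1 from 65.0 ± 1.69 to 0.86 ± 0.314 FPKM and Krt19 from 78.5 ± 3.54 to 50.1 ± 6.25. The mesothelial markers did not move alike. Wt1 and Upk3b, below 1 FPKM in every WT library, rose from 0.117 ± 0.0151 to 1.51 ± 0.146 and from 0.448 ± 0.0828 to 2.1 ± 0.346 FPKM. Msln fell from 5.96 ± 0.183 to 3.61 ± 1.83 FPKM with no overlap, and was at 1.13 and 1.38 in KO5 and KO6. The airway and alveolar list summed to 170.99 to 207.5 FPKM in WT and 1.36 to 17.55 in KO, nearly all of it Cxcl15, with Scgb1a1, Sftpc, Sftpb and Foxj1 below 1. Macrophage markers summed to 2.09 to 2.93 FPKM in WT and 8.4 to 14.86 in KO, with Ptprc, Adgre1 and Itgam at most 0.04, 0.02 and 0.03. Cd68 and Csf1r carried most of this rise, from 1.62 ± 0.305 to 8.19 ± 2.62 and from 0.707 ± 0.0924 to 3.05 ± 0.326 FPKM. Lyz2 went from 0.1 ± 0.0825 to 1.07 ± 0.522 FPKM. The 5 endothelial markers were all below 1, with a sum of 0.1 to 0.24 FPKM in WT and 0.5 to 0.94 in KO. Kdr alone carried this rise, from 0.00333 ± 0.00516 to 0.623 ± 0.149 FPKM. The means of Pecam1, Tek and Emcn were lower in KO, and Cdh5 was at most 0.01 FPKM. The 4 fibroblast markers, carried mainly by Col1a1, summed to 540.17 to 570.82 FPKM in WT, 813.8 to 883.36 in KO1 to KO4, 395.96 in KO5 and 589.97 in KO6. Among them Pdgfra rose from 1.08 ± 0.236 to 10.4 ± 3.81 FPKM, with no overlap (adjusted p = 4.7e-07, limma). It was under 1 FPKM in WT2, WT3 and WT4, and was tested because of its KO values. Dcn and Col1a1 did not pass with all libraries (adjusted p = 0.73 and 0.069, limma) and were higher with KO1 to KO4 alone. In KO5 and KO6 Dcn was at 26.69 and 22.08 FPKM, below WT (62.25 to 79.26). Lum stayed below 1 FPKM throughout. The part of such cells in the differences below was not tested.

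Levels are given as FPKM, fragment counts divided by gene length and by the library's mapped fragments, so that levels of different genes can be set side by side. Differences are KO minus WT on the scale of log2(FPKM + 1), tested with limma over the 11831 genes that reached 1 FPKM in 6 or more libraries, with Benjamini-Hochberg adjustment over all of them and a threshold of 0.05. Because 1 is added, changes of genes with low levels come out too small. All 31 members could be tested, although Tm7sf2 fell below 1 FPKM in 3 KO libraries and was tested because its WT libraries were above it. Means are given ± SD (n = 6 per genotype), and folds are ratios of mean FPKM.

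Of the 31 members, 9 were higher and 14 lower in KO, and 8 did not pass. That is 74.2% called, where 63.5% of all genes tested were called, 32.6% higher and 30.9% lower, so the share of members called was near the background of this comparison. The median difference of the members was -0.11, against 0.01 for all genes tested, and the median size of the difference regardless of sign was 0.35 and 0.32. Only 6 members, Insig1, Stard4, Mvd, Sqle, Tm7sf2 and Acsl1, differed by at least 0.5 on the log2 scale, where 31.1% of all tested genes were called with such a difference. In 18 members (58.1%) the genotypes were fully separate, 6 with KO above and 12 with KO below, beside 46.4% of all tested genes (23.8% above, 22.5% below). With quantile normalization the split was 6 higher and 16 lower, because Srebf1, Srebf2 and Ebp no longer passed while Hmgcs1 and Fdft1 did. Without KO5 and KO6, 13 members were higher and 14 lower, where 77.1% of all genes were called (39.9% higher, 37.1% lower), and 13 lay fully above and 13 fully below WT, where 66.0% of all genes were fully separate. Of the members called with all libraries, only Acaca then lost its call, and none changed direction. The plot of differences in pathway order shows higher and lower genes side by side both before and after squalene.

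**Figure D1:**
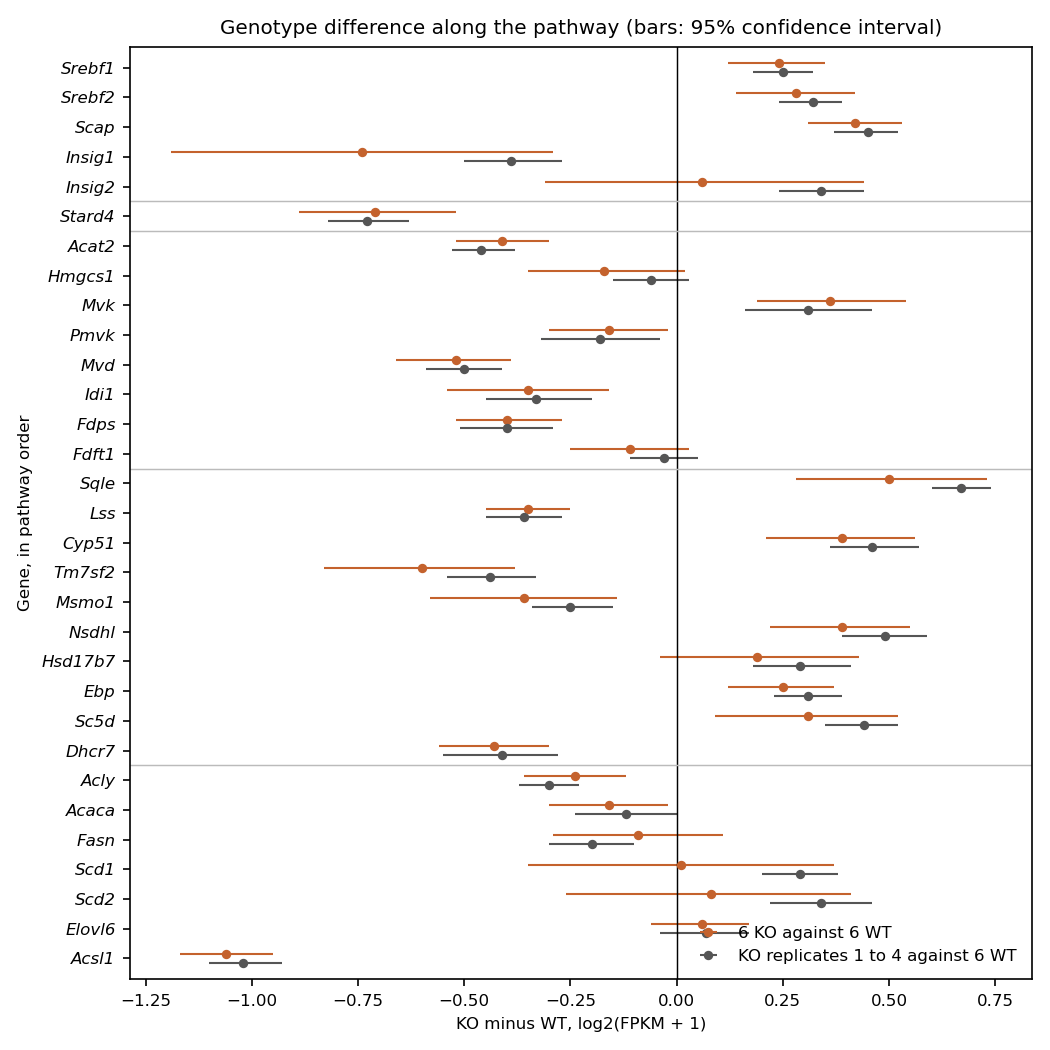
Difference in level between KO and WT for each of the 31 genes, in pathway order from top to bottom; the x axis is KO minus WT in log2(FPKM + 1), bars are 95% confidence intervals from limma, orange uses all 6 KO libraries and grey only KO1 to KO4. Acsl1 lies farthest left at -1.06, and Insig2, Scd1 and Scd2 move from near 0 to 0.34, 0.29 and 0.34 when KO5 and KO6 are left out.

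The sequences before the start sites of some of these genes are shown first, because known SREBP targets carry short motifs there. RefSeq's promoter table for GRCm38.p6 held 25 of the 31 members, with 34 windows of 250 bases before a start site. The build named in the submitters' processing notes is mm9, so these positions come from the reference and not from the deposited table. Letters were searched on both strands. CCAAT, the box bound by NF-Y, a factor known to act beside SREBP, was in 21 of the 34 windows (61.8%, against 33.8% of all 32851 windows in the table). Counted by gene, 20 of 25 members had it in a window (80%), against 41.5% of the 8584 tested genes with an entry. Among members with an entry it was in 7 of 8 that were higher in KO, 9 of 12 that were lower and 4 of 5 that did not pass, so it was found in members of every outcome. GGGCGG, the Sp1 box, was in 21 of 25 members (84%, against 66.6% of tested genes). The E-box CACGTG was in 5 of 25 (20% against 10.3%). TCACNCCAC, a loose form of the sterol regulatory element to which SREBP binds, was in 2 of 25 members, Hmgcs1 and Acsl1 (8%, against 1.25%). The strict sterol regulatory element was in 0 of 25 members and 0 of 34 windows, and in 0.0466% of tested genes. A match is a description of the letters, and the window may not be the start used in these cells.

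Windows of 5 members are printed 5′ to 3′ on the gene's own strand. Insig1, at chr5:28071162-28071362 on the plus strand, is shown as the feedback target that fell, with 49 bases next to the start left out because an annotated exon covers them. Hmgcs1, at chr13:119690101-119690350 on the plus strand, and an internal start of Acsl1, at chr8:46490716-46490965 on the plus strand, hold the loose sterol element. Mvk, at chr5:114444019-114444268 on the plus strand, and Mvd, at chr8:122443423-122443672 on the minus strand, encode enzymes of the mevalonate pathway that went in opposite directions. Capitals mark CCAAT or its reverse complement ATTGG in all, the loose sterol element on either strand in Hmgcs1 and Acsl1, and CACGTG in Insig1.
Insig1: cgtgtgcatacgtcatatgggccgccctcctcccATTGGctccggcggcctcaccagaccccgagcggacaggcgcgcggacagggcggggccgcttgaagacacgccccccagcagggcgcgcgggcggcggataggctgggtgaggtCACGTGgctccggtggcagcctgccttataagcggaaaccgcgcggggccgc
Hmgcs1: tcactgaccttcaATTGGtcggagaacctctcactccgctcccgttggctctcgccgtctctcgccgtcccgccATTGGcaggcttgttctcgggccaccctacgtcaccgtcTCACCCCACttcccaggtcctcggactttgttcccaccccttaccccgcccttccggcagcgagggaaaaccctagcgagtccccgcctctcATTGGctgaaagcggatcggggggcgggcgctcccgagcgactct
Mvk: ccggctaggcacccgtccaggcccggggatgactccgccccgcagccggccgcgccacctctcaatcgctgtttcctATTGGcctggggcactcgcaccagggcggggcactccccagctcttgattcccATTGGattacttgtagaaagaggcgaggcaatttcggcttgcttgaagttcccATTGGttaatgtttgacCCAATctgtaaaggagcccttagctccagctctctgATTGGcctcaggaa
Mvd: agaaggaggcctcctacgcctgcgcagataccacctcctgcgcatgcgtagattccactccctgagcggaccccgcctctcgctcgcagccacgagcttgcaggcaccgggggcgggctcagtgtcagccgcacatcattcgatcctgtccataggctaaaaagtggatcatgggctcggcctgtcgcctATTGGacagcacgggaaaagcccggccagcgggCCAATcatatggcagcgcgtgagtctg
Acsl1: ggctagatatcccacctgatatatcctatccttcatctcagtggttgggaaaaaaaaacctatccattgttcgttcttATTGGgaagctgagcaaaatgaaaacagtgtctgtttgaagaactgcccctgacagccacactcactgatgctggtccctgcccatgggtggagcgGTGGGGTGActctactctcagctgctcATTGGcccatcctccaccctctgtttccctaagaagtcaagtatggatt
The windows of Mvk, Hmgcs1 and Mvd held 5, 3 and 2 CCAAT boxes, and box number was not compared with direction over the members. In Hmgcs1 the loose sterol element began 137 bases before the start, between CCAAT boxes at 176 and 45 bases. Among the printed windows, only that of Hmgcs1 ends at a start whose next bases were not found in an annotated transcript. That start lies before the annotated start of the gene, at chr13:119690379 (GENCODE M21). In Insig1 the E-box began 101 bases before the start.

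The transcripts of the SREBP factors and their escort were higher in KO, by less than 0.5 on the log2 scale. Srebf2 was at 26.33 to 28.54 FPKM in WT (median 27.6) and 27.57 to 36.64 in KO (median 35.0). KO5, at 27.57, lay within the WT range, and the other 5 KO libraries were above it. The difference was 0.28 ± 0.066 (SE; adjusted p = 0.0021, limma), from a mean of 27.4 ± 0.837 to 33.6 ± 3.32 FPKM. Srebf1, whose gene-level value does not separate its long and short first-exon forms, was at 15.3 to 16.77 FPKM in WT (median 16.0) and 16.83 to 20.6 in KO (median 19.1). These groups did not overlap, though KO5 exceeded the highest WT library only slightly, and the difference was 0.24 ± 0.052 (adjusted p = 0.0014). Scap, the sterol sensing escort of SREBP, rose 1.37-fold, from 10.63 to 11.8 FPKM in WT (median 11.2) to 13.62 to 16.08 in KO (median 15.7), with no overlap (difference 0.42 ± 0.051, adjusted p = 9.6e-06). Without KO5 and KO6 the 3 differences, in the same order, were 0.32, 0.25 and 0.45. With quantile normalization they were 0.14, 0.12 and 0.34, and Srebf2 and Srebf1 no longer passed (adjusted p = 0.11 and 0.073, limma). The balance of the factors was not found to differ: the FPKM ratio of Srebf1 to Srebf2 was 0.536 to 0.637 in WT and 0.544 to 0.61 in KO (difference in log2 ratio -0.05, exact permutation p = 0.305, two-sided, with 1 added to each FPKM).

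The 2 INSIG genes, whose products retain SCAP in the endoplasmic reticulum, did not move alike. Insig1 was at 25.51 to 29.1 FPKM in WT (median 26.9), at 19.08 to 22.72 in KO1 to KO4, and at 10.79 and 7.89 in KO5 and KO6. Every KO library was below every WT library, and KO5 and KO6 were lower still. The mean fell from 27.0 ± 1.58 to 16.8 ± 5.95 FPKM (1.61-fold lower; difference -0.74 ± 0.21, adjusted p = 0.0074), and the difference was -0.39 without KO5 and KO6 (adjusted p = 2.6e-05, limma). Insig2 was at 12.55 to 15.21 FPKM in WT (median 13.5), at 16.89 to 18.55 in KO1 to KO4, and at 11.79 and 7.56 in KO5 and KO6. KO1 to KO4 were thus all above WT and the other 2 all below it, and with 6 libraries the difference of 0.06 did not pass (95% interval -0.31 to 0.44, adjusted p = 0.77). With KO1 to KO4 only, Insig2 rose by 0.34 (adjusted p = 3.2e-05, limma).

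The ratio of Insig1 to Insig2 was lower in all 6 KO libraries. In WT it was 2.07, 2.17, 2.03, 1.68, 1.99 and 1.95 in WT1 to WT6, and in KO 1.03, 1.2, 1.3, 1.15, 0.915 and 1.04. The groups did not overlap, and KO5 and KO6 were close to the others on this measure although each gene alone set them apart. On the log2 scale the difference in the ratio was -0.81 (exact permutation p = 0.00216, the smallest that 6 against 6 allow; adjusted over 3 gene pairs 0.00649). Without KO5 and KO6 it was -0.72 (exact permutation p = 0.00476 over 210 assignments, adjusted 0.0143).

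Stard4, a small protein that carries cholesterol between membranes and is a known SREBP target, fell 1.68-fold. It was at 15.86 to 17.38 FPKM in WT (median 16.4) and 7.92 to 12.67 in KO (median 9.87), with no overlap (difference -0.71 ± 0.086, adjusted p = 9e-06, limma; -0.73 without KO5 and KO6). Here KO5 held the highest KO value and KO6 the lowest.

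**Figure D2:**
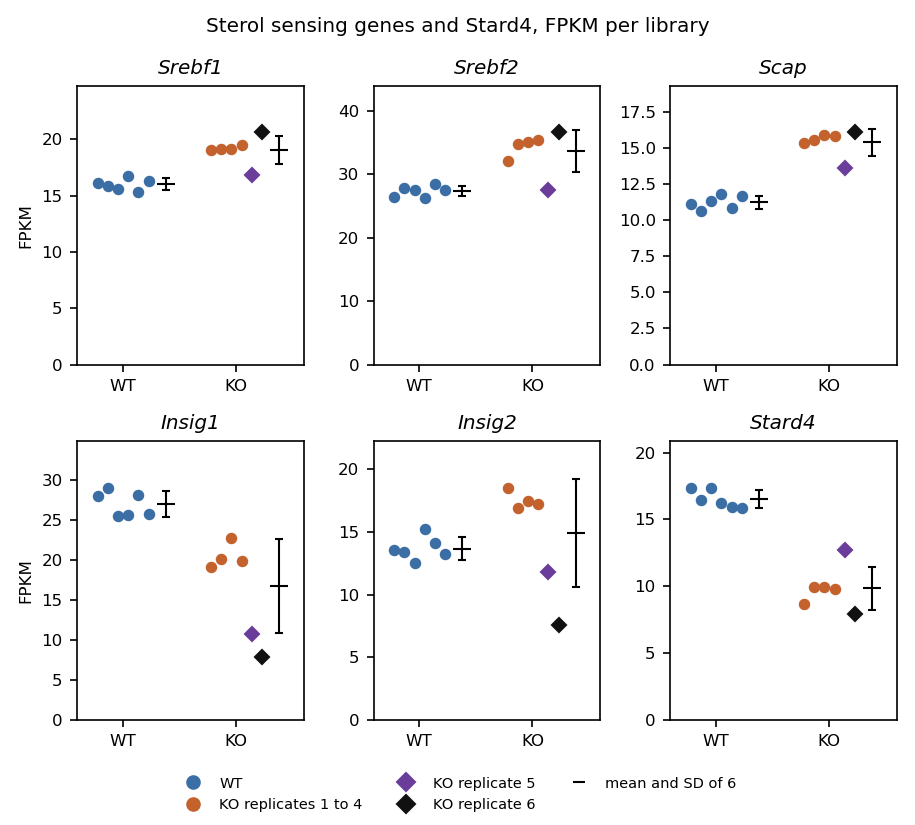
FPKM in each library of the sterol sensing genes and Stard4; circles are single libraries, diamonds are KO5 (purple) and KO6 (black), and the bar beside each group is the mean and SD of 6 libraries, with each y axis starting at 0. Insig1 and Insig2 are lowest in KO5 and KO6, at 10.79 and 7.89 and at 11.79 and 7.56 FPKM.

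Of the 8 enzymes from acetyl-CoA to squalene 5 fell, Mvk rose and 2 did not pass. The share called was 75%, beside 63.5% of all tested genes, of which 30.9% were lower, and the median difference was -0.26. Acat2, the cytosolic thiolase that joins acetyl-CoA units, fell 1.35-fold, from 22.3 ± 0.804 to 16.6 ± 1.15 FPKM (adjusted p = 1.5e-05). All KO libraries lay below WT, and the difference of -0.41 was -0.46 without KO5 and KO6. Hmgcs1, which makes HMG-CoA and carries the loose sterol element printed above, was at 18.59 to 21.02 FPKM in WT and 13.11 to 19.92 in KO. Its difference of -0.17 did not pass (95% interval -0.35 to 0.02, adjusted p = 0.1), and it was -0.06 without KO5 and KO6, the 2 libraries with the lowest values.

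The 3 enzymes that phosphorylate and decarboxylate mevalonate went different ways. Mvk, mevalonate kinase, was at 3.84 to 5.41 FPKM in WT (median 4.72) and 5.81 to 7.76 in KO (median 6.08), with no overlap, and KO6 was highest (1.34-fold, difference 0.36 ± 0.081, adjusted p = 0.0016). Pmvk, the next kinase, averaged 4.08 ± 0.456 FPKM in WT against 3.54 ± 0.253 in KO, overlapped, and passed only at the threshold (difference -0.16, adjusted p = 0.0497, limma). The call was lost without KO1, KO2, KO3, KO4, KO6, WT2, WT3, WT4 or WT5 (adjusted p up to 0.12). Mvd, which then releases carbon dioxide to form the isoprenoid unit, was at 9.13 to 10.19 FPKM in WT (median 9.71) and 5.41 to 7 in KO (median 6.62). All KO libraries were below all WT libraries, and the fall was 1.5-fold (difference -0.52 ± 0.061, adjusted p = 5.7e-06, limma). In the fit on KO1 to KO4 the difference was 0.31 for Mvk, -0.18 for Pmvk and -0.50 for Mvd.

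The steps that build squalene were lower or did not pass. Idi1, which isomerises the isoprenoid unit, fell from 11.4 ± 0.783 to 8.8 ± 1.29 FPKM, and Fdps, which makes farnesyl diphosphate, from 11.0 ± 0.652 to 8.14 ± 0.599. Neither overlapped between genotypes, although for Idi1 KO5 (10.4 FPKM) was just under the lowest WT library (10.41). Fdft1, squalene synthase, averaged 19.9 ± 0.845 FPKM in WT against 18.4 ± 1.77 in KO (difference -0.11, 95% interval -0.25 to 0.03, adjusted p = 0.14) and 19.5 ± 0.479 in KO1 to KO4 (SD, n = 4).

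The stretch from squalene to cholesterol split: of 10 members 5 rose, 4 fell and Hsd17b7 did not pass (90% called, beside 63.5% of all tested genes). Sqle, squalene epoxidase, the first oxygen-dependent step and a known point of control, was at 17.78 to 18.57 FPKM in WT (median 18.0), 27.96 to 31.03 in KO1 to KO4, and 21 and 19.85 in KO5 and KO6. All KO libraries were above WT, and KO5 and KO6 were closest to it. The mean rose 1.46-fold (difference 0.50 ± 0.1, adjusted p = 0.00084), and the difference was 0.67 without these 2 libraries. Lss, which closes the rings to form lanosterol in the very next step, fell 1.36-fold, from 3.94 to 4.38 FPKM in WT (median 4.04) to 2.79 to 3.23 in KO (median 2.98; adjusted p = 2.3e-05). KO5 and KO6, at 2.94 and 3.23, lay with the other KO libraries for this gene. Cyp51, which removes a methyl group from lanosterol, rose 1.34-fold, from 13.38 to 15.27 FPKM in WT (median 14.8) to 15.06 to 22.16 in KO (median 20.2). Only KO6, at 15.06, lay within the WT range (adjusted p = 0.00091), and the difference of 0.39 was 0.46 without KO5 and KO6.

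Among the sterol reductases and demethylases that follow, neighbours again differed in direction. Tm7sf2, a sterol reductase that acts after Cyp51, was at 1.64 to 1.95 FPKM in WT (median 1.83), 0.98 to 1.2 in KO1 to KO4, and 0.52 and 0.41 in KO5 and KO6. It fell 2.08-fold with no overlap (difference -0.60 ± 0.11, adjusted p = 0.00022, limma). Of the 31 members, only Tm7sf2 and Acsl1 are marked significant in the authors' deposited table. Their log2 ratios of WT over KO there, 1.05 and 1.34, are the largest of the 31. The mark does not follow the q-value alone, since many unmarked members, such as Stard4, Mvd and Sqle, have a q-value printed as 0 there. Msmo1, the methyl sterol oxidase, fell from 8.82 ± 0.357 to 6.75 ± 1.22 FPKM, with 4.37 in KO6. Nsdhl, which works with Msmo1 to remove methyl groups, rose: it was at 6.67 to 7.46 FPKM in WT (median 7.37), 9.75 to 11.17 in KO1 to KO4, and 8.13 and 8.41 in KO5 and KO6, with no overlap (difference 0.39 ± 0.075, adjusted p = 0.00054). Hsd17b7, the reductase of the same complex, averaged 3.42 ± 0.194 FPKM in WT against 4.12 ± 0.874 in KO and did not pass (difference 0.19, 95% interval -0.04 to 0.43, adjusted p = 0.14). Without KO6, which held 2.47 FPKM, it rose by 0.30 (adjusted p = 0.00031, limma).

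The last steps were divided as well. Ebp, the sterol isomerase, rose from 21.4 ± 0.705 to 25.6 ± 2.14 FPKM, and Sc5d, the desaturase after it, from 9.07 ± 0.415 to 11.6 ± 1.94. For Ebp KO6 (22.25 FPKM) was just above the highest WT library (22.17), and for Sc5d it was below the lowest (7.93 against 8.59). The exact rank-sum test did not call Sc5d (adjusted p = 0.094), and with quantile normalization Ebp differed by 0.12 and did not pass (adjusted p = 0.074, limma). Dhcr7, the reductase that yields cholesterol, was at 2.16 to 2.64 FPKM in WT (median 2.54) and 1.4 to 1.94 in KO (median 1.55), with no overlap, and fell 1.56-fold (difference -0.43 ± 0.062, adjusted p = 4.1e-05). The members called higher in this stretch, Sqle, Cyp51, Nsdhl, Ebp and Sc5d, had means of 7.19 to 21.4 FPKM in WT, and those called lower, Lss, Tm7sf2, Msmo1 and Dhcr7, had means of 1.81 to 8.82. Leaving out KO5 and KO6 changed no direction here, and Hsd17b7, with a WT mean of 3.42 FPKM, then joined the genes that rose. Level was not tested against direction. Without KO5 and KO6 the difference was 0.49 for Nsdhl and 0.44 for Sc5d, and -0.44 for Tm7sf2 and -0.25 for Msmo1.

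**Figure D3:**
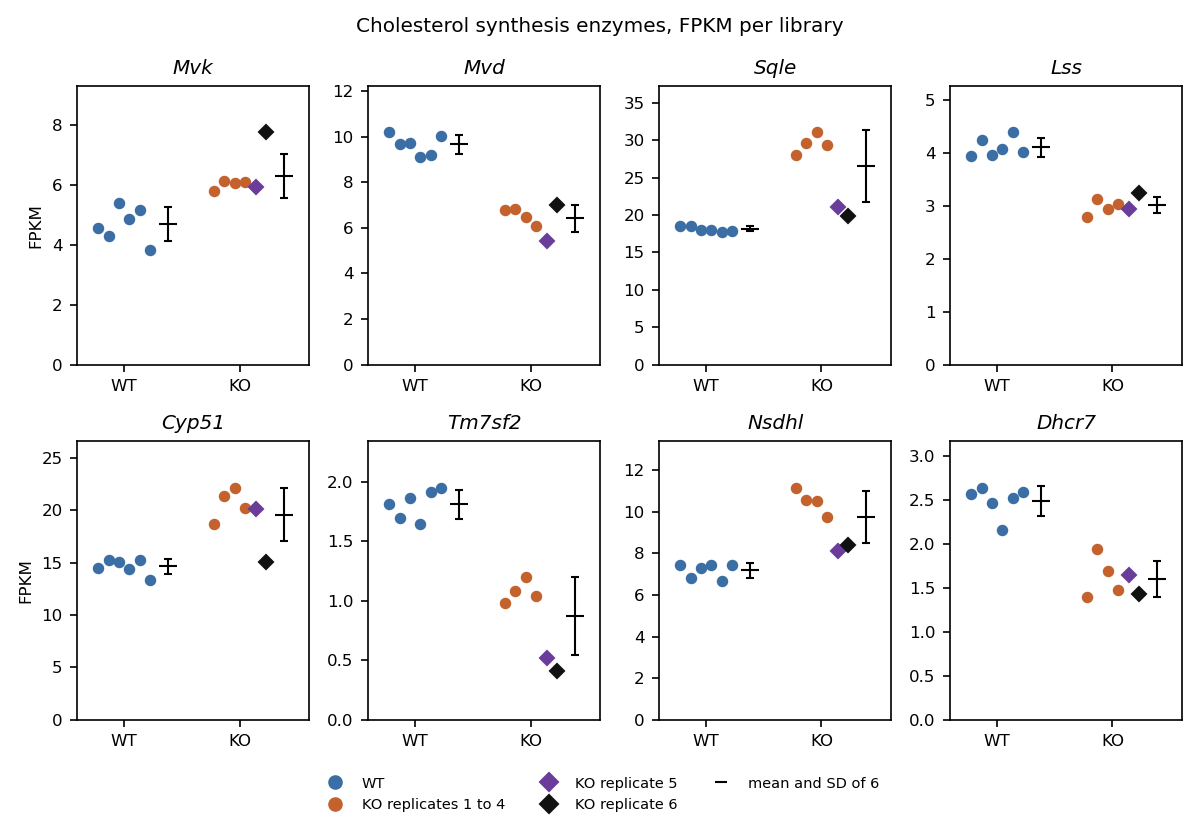
FPKM in each library for 8 enzymes of cholesterol synthesis in pathway order; circles are single libraries, diamonds are KO5 (purple) and KO6 (black), bars are the mean and SD of 6 libraries, and each y axis starts at 0. Mvk, Sqle, Cyp51 and Nsdhl are higher in KO and Mvd, Lss, Tm7sf2 and Dhcr7 lower, with Sqle in KO5 and KO6 (21 and 19.85 FPKM) close to WT.

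Of the 7 fatty acid genes 3 fell and 4 did not pass, which is 42.9% called beside 63.5% of all tested genes. With KO1 to KO4 alone, Scd1 and Scd2 rose and Acly, Fasn and Acsl1 fell (71.4% called, where 77.1% of all genes were). Acsl1 had the largest difference of the 31 members. Acsl1, which activates long-chain fatty acids by joining them to coenzyme A, was at 5.68 to 6.35 FPKM in WT (median 6.16) and 2.13 to 2.66 in KO (median 2.42). Every KO library, KO5 and KO6 included, was under the lowest WT library by a wide margin, and the fall was 2.54-fold (difference -1.06 ± 0.051, adjusted p = 9.5e-10; -1.02 without KO5 and KO6). Acly, which makes cytosolic acetyl-CoA from citrate for both pathways, was the second most abundant member in WT, at 55.62 to 60.12 FPKM (median 58.5), and was at 44.96 to 55.49 in KO (median 48.1). It fell 1.18-fold (difference -0.24 ± 0.056, adjusted p = 0.0021), with KO6 (55.49) barely under the lowest WT library. Acaca, acetyl-CoA carboxylase, the committed step of fatty acid synthesis, averaged 7.33 ± 0.357 FPKM in WT against 6.48 ± 0.667 in KO. Its call (difference -0.16, adjusted p = 0.043) was lost without KO5 and KO6 (adjusted p = 0.056, limma) and without any 1 of KO1, KO3, KO5, WT1, WT3, WT4, WT5 and WT6 (up to 0.095).

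Fasn, fatty acid synthase, depended on a single library. It was at 38.07 to 39.94 FPKM in WT (median 39.2), 29.81 to 36.45 in KO1 to KO4, 36.44 in KO5 and 49.88 in KO6. KO1 to KO5 were below all WT libraries and KO6 was above them all. With 6 libraries the difference was -0.09 (95% interval -0.29 to 0.11, adjusted p = 0.4), and without KO6 it was -0.18 (adjusted p = 0.0076, limma).

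The stearoyl-CoA desaturases, which make monounsaturated fatty acids, divided the KO libraries. Scd2, the most abundant member, was at 181.64 to 220.09 FPKM in WT (median 193), 233.25 to 257.76 in KO1 to KO4, and 147.11 and 140.61 in KO5 and KO6. Scd1 was at 47.19 to 54.57 FPKM in WT (median 50.0), 59.68 to 63.48 in KO1 to KO4, and 37.14 and 31.35 in KO5 and KO6. For both genes KO1 to KO4 lay above all WT libraries and the other 2 below all of them, and neither passed with 6 libraries (Scd1 0.01, 95% interval -0.35 to 0.37; Scd2 0.08, 95% interval -0.26 to 0.41). Without KO5 and KO6, Scd1 rose by 0.29 (adjusted p = 4.2e-05) and Scd2 by 0.34 (adjusted p = 1e-04). The ratio of Scd1 to Scd2 stayed narrow, at 0.248 to 0.273 in WT and 0.223 to 0.256 in KO, and its difference of -0.07 on the log2 scale did not pass after adjustment over 3 gene pairs (exact permutation p = 0.0368, adjusted 0.0552). The 2 genes lie near each other on chromosome 19 of GRCm38, Scd2 at chr19:44293674-44306864 and Scd1 at chr19:44394455-44407879 (GENCODE M21), and reads that fit both could have been divided between them in an unknown way. Elovl6, which lengthens the products of Fasn, averaged 6.2 ± 0.232 FPKM in WT against 6.5 ± 0.498 in KO (difference 0.06, 95% interval -0.06 to 0.17, adjusted p = 0.37).

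**Figure D4:**
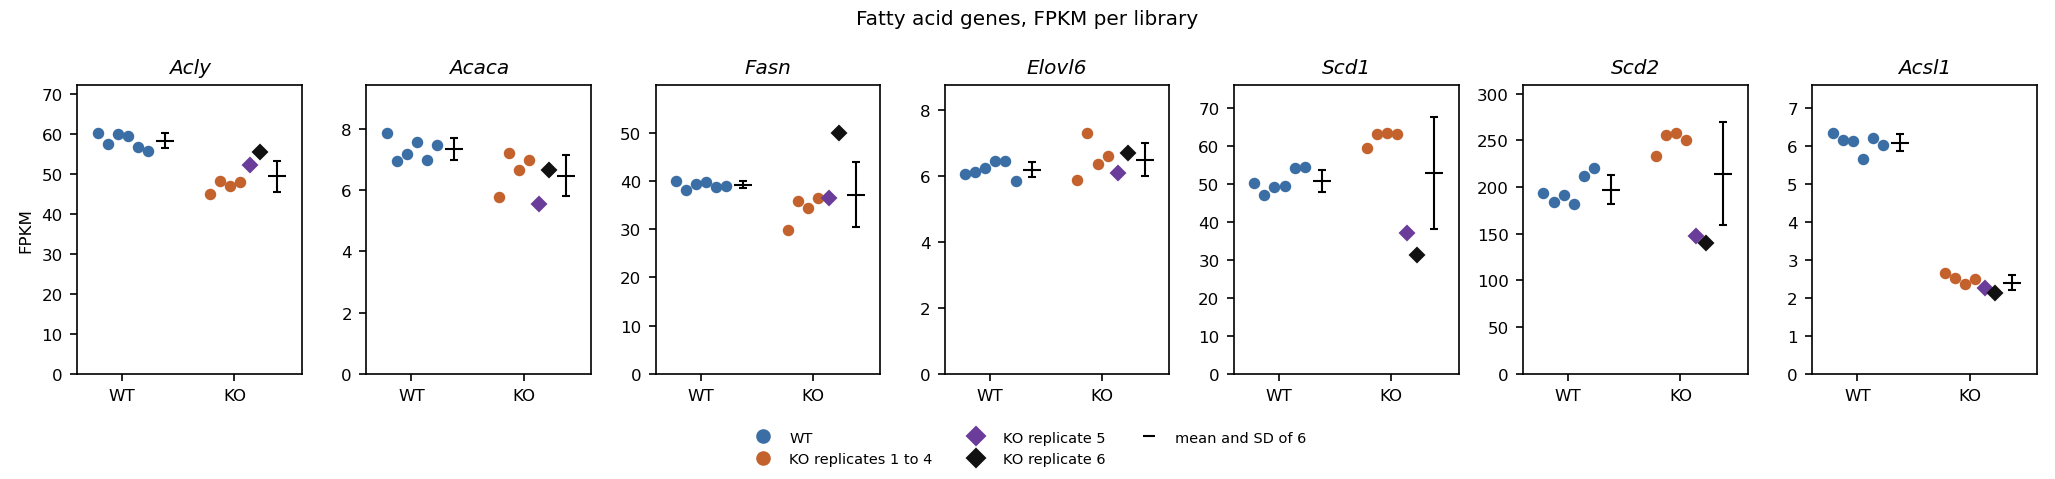
FPKM in each library for the 7 fatty acid genes; circles are single libraries, diamonds are KO5 (purple) and KO6 (black), bars are the mean and SD of 6 libraries, and each y axis starts at 0. Scd1 and Scd2 are above WT in KO1 to KO4 and below it in KO5 and KO6, whereas Acsl1 is low in all 6 KO libraries.

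Over the 31 members, KO5 and KO6 both lay outside the range of KO1 to KO4 in 14 genes (45.2%, against 57.1% of all genes tested), 12 of them below and 2, Acat2 and Acly, above. Below this range were Insig1, Insig2, Hmgcs1, Fdft1, Sqle, Tm7sf2, Nsdhl, Ebp, Sc5d, Scd1, Scd2 and Acsl1; of all tested genes 32.3% were below it in both libraries and 24.7% above. Summed levels of the 4 markers of cycling cells were 83.27 to 117.42 FPKM in WT and 69.79 to 76.69 in KO1 to KO4. They were 158.67 and 231.64 in KO5 and KO6, and of the KO6 sum 119.95 was Mki67. With KO1 to KO4 alone, Mki67 and Top2a were lower than in WT (-0.53 and -1.04) and Ccnb1 and Cdk1 higher (0.21 and 0.34). The part of cycling cells in how KO5 and KO6 differed from KO1 to KO4 was not tested.

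**Figure D5:**
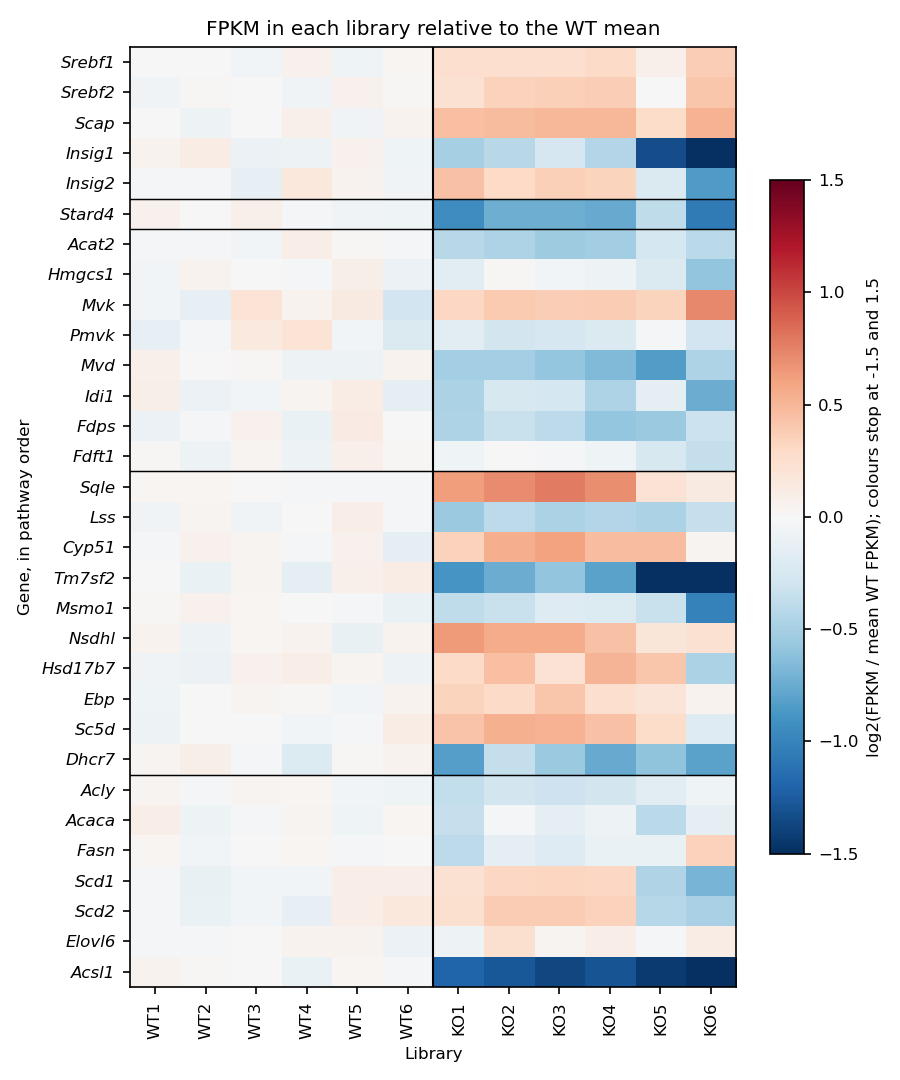
Level of each of the 31 genes (rows, in pathway order) in each of the 12 libraries (columns) as log2 of FPKM over the WT mean; red is higher, blue lower, and colours stop at -1.5 and 1.5. KO5 and KO6 differ from KO1 to KO4 in Insig1, Insig2, Sqle, Tm7sf2, Scd1 and Scd2, while Stard4, Mvd, Lss, Dhcr7 and Acsl1 are blue in all 6 KO columns.

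Related genes outside the list were counted in the same fit. Of 7 tested genes that process SREBP or turn over INSIG, Erlin1 rose, Mbtps1 and Erlin2 fell and 4 did not pass. The share called was 42.9%, beside 63.5% of all tested genes. Mbtps1, the site protease that makes the first cut in SREBP, fell 1.51-fold, from 15.6 ± 0.419 to 10.3 ± 1.98 FPKM (adjusted p = 0.00032), and Mbtps2, the protease of the following cut, was at 4.85 ± 0.27 and 4.88 ± 0.821 (adjusted p = 0.98). The paralogs Erlin1 and Erlin2, whose products help degrade sterol-regulated proteins, went in opposite directions, 1.38-fold higher and 1.3-fold lower.

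Of 11 tested genes of sterol transport, storage and the oxysterol receptors LXR, 5 rose and 3 fell. This is 72.7% called, near the 63.5% of all tested genes. Nr1h3, which encodes LXR alpha, rose 2.01-fold, from 5.44 ± 0.526 to 10.9 ± 1.14 FPKM (adjusted p = 3.2e-07), whereas Nr1h2, LXR beta, was at 12.4 ± 0.458 and 11.4 ± 0.968 (adjusted p = 0.12). Soat1, which esterifies cholesterol for storage, fell from 16.8 ± 1.01 to 12.1 ± 1.15 FPKM (adjusted p = 6e-05), and Osbp, an oxysterol binding protein, rose 1.26-fold. Mylip, Lipa and Npc2 also passed as higher, through KO1 to KO4. Lipa was at 17.71 and 14.05 FPKM in KO5 and KO6 (WT 16.23 to 20.88), Npc2 at 58.13 and 48.53 (WT 52.38 to 61.75) and Mylip at 1.83 and 2.04 (WT 1.52 to 1.99). Leaving these 2 libraries out moved the difference from 0.57 to 0.95 for Lipa and from 0.30 to 0.48 for Npc2. Vldlr and Stard3 fell, with a difference for Vldlr of -0.75 with all libraries and -0.40 without KO5 and KO6. Abca1, a cholesterol exporter and LXR target, averaged 9.03 ± 1.42 FPKM in WT against 12.6 ± 5.09 in KO (adjusted p = 0.22), with 6.12 and 6.47 in KO5 and KO6; without them it rose by 0.74 (adjusted p = 3.3e-05).

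Branches that use isoprenoid units also moved in both directions: of 9 tested, Ggps1, Coq2, Dhdds, Nus1 and Fntb rose and 3 fell (88.9% called, beside 63.5% of all tested genes). Nus1, a subunit of the enzyme that makes dolichol chains, rose 1.63-fold to 23.5 ± 3.26 FPKM (adjusted p = 1.6e-05), while Fnta and Pggt1b, subunits of the protein prenyltransferases, fell 1.42- and 1.34-fold, and Pdss2, of ubiquinone synthesis, 1.51-fold. Pdss2 was below 1 FPKM in every KO library and was tested only because of its WT values.

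Of 14 tested genes for fatty acid supply, elongation, desaturation and activation, 8 rose and 3 fell, and the median difference was 0.41. The share called was 78.6%, beside 63.5% of all tested genes. Me1, malic enzyme, a source of NADPH, rose 1.58-fold to 28.8 ± 2.25 FPKM (adjusted p = 5.6e-07). Elovl7, an elongase that was tested only because of its KO values, went from 0.293 ± 0.0668 to 2.31 ± 0.684 FPKM (adjusted p = 1.6e-07). Acsl4, a paralog of Acsl1, rose 1.97-fold, from 19.1 ± 0.698 to 37.6 ± 8.68 FPKM (adjusted p = 9.2e-05, limma), while Acsl3 and Acsl5 did not pass. Tecr, the reductase that ends each elongation cycle, fell 1.58-fold to 32.1 ± 2.24 FPKM (adjusted p = 1.8e-07), and Slc25a1 and Acss2, which export citrate from mitochondria and activate acetate, were the others that fell. Acss2 was below 1 FPKM in every KO library and was tested only because of its WT values. Of 7 genes of glycerolipid assembly and lipid droplets, Plin2, Dgat1, Gpam and Lpin1 rose and 3 did not pass (57.1% called). For Lpin1 the difference was 0.34 with all libraries and 0.55 without KO5 and KO6. Plin2, a coat protein of lipid droplets, rose from 16.3 ± 1.01 to 27.1 ± 2.01 FPKM (adjusted p = 3.2e-07), and Dgat1, which completes triglycerides, 1.81-fold. Of 10 genes of fatty acid oxidation, Cpt1a, Hadha and Hadhb rose, Acadl and Acadm fell and 5 did not pass (50% called). The difference for Cpt1a was 0.36 with all libraries and 0.55 without KO5 and KO6. Acadl, a long-chain dehydrogenase, fell from 69.4 ± 2.45 to 44.2 ± 6.12 FPKM. Over the 6 related lists 26 of 58 tested genes rose and 13 fell, which is 67.2% called beside the 63.5% of all genes. With KO1 to KO4 alone, 32 rose and 14 fell (79.3% called, beside 77.1%).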

How the data were processed

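Per the labels' protocols, the libraries were made from oligo(dT)-selected RNA with a dUTP second strand and read from both ends. The authors deposited FPKM to 2 decimals for 29462 genes, and the same deposited table holds their ratio of WT over KO means, also as log2, with a p-value and q-value by a test that no source used here names. The submitters' processing notes list StringTie 1.3.4d, HISAT2 2.0.4, cutadapt 1.9, edgeR, DESeq2 and mm9, without roles. Whether counting used strand is unknown, so overlapping genes are uncertain. FPKM sums were 255538 to 281432. Of 27154 low values 18.7% lay within 0.1 of a whole multiple of the gene's smallest value (20% if evenly spread), so reads could not be recovered, depth is unknown and no count test was run.

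Here log2(FPKM + 1) was fitted with limma 3.58.1 (R 4.3.3) with genotype as the only term and a variance trend, over genes with 1 FPKM or more in 6 libraries. Tests were two-sided. The fit was tested on simulated data. The gene pair ratios used exact permutation. All members, up to 3 called genes with the smallest p in each related list, genes that complete a count of 5 or fewer, Cth and Mki67 were named by rule, and Abca1, Nr1h2, Mbtps2, Acsl3, Acsl4, Acsl5 and the single marker genes after their values were seen. Members and lists were chosen with earlier results of these data known. Alternatives were the pseudocount, filter, scaling, variance model, library weights, a rank-sum test, the replicate block and libraries left out.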

Additional observations from a re-analysis of the deposited data

Results flagged for a closer look

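In each genotype the highest or lowest of the 6 libraries was compared with its nearest neighbour for the 31 genes and 3 gene ratios, 68 groups in all, by Dixon's criterion, which chance exceeds in about 1 of 20 groups. Single libraries stood out in 6 groups, all of KO. KO6 was the library in 5 of them: it was highest in Mvk at 7.76 FPKM and in Fasn at 49.88, and lowest in Msmo1 at 4.37, in Hsd17b7 at 2.47 and in the ratio of Scd1 to Scd2 at 0.223. KO5 was lowest in Scap at 13.62 FPKM. Genes in which KO5 and KO6 lie together away from the other 4, such as Insig1, Scd1 and Scd2, are not found by this criterion.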

How the results depend on the processing

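Of the 31 members 18 kept their direction and their side of the threshold under every alternative run. The number called was 6 to 13 higher and 10 to 16 lower over 24 alternatives, and 9 to 10 and 12 to 14 when each library was left out in turn. Over all genes, 7121 to 8105 were called with a library left out, 3664 to 4252 of them higher and 3426 to 3853 lower. Fewer genes were tested with at least 5 FPKM in 6 libraries, and 4775 were called, 2505 higher and 2270 lower. Direction changed in members near 0 only. Insig2 was -0.02 with quantile normalization and -0.01 without KO1. Scd1 was -0.0035 with median-ratio scaling and -0.12 with quantile normalization. With single libraries left out Insig2 ranged from -0.01 to 0.23 and Scd1 from -0.05 to 0.14, below 0 without KO1, KO2, KO3, KO4, WT2, WT3 or WT4 and highest without KO6. Without KO5 and KO6 Insig2, Hsd17b7, Fasn, Scd1 and Scd2 passed and Acaca did not, and the same 6 changed sides with array weights. The ratio of Insig1 to Insig2 passed throughout, between -0.85 and -0.72 (adjusted p = 0.00649 to 0.0469 by exact permutation). That of Scd1 to Scd2 was between -0.08 and -0.04 with a library left out and passed without WT6, KO1, KO4 or KO5 (adjusted exact permutation p = 0.013 to 0.0487 there, up to 0.136 elsewhere). The replicate block, for which same-numbered libraries should deviate together, was run although they did not (correlations -0.273 to -0.0582). With the replicate block 9 members were higher and 12 lower, Pmvk and Acaca no longer passing, and the ratio of Scd1 to Scd2 passed at -0.07 (adjusted p = 0.0469). Taking the sum of a symbol's rows changes nothing, since each member has 1 row. Depth is unknown and limits of counting error cannot be given.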
